A study of Oryza sativa with 4 samples.

Results

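NH1 and 9 loci of pathogenesis-related (PR) proteins of the rice defence response were followed in flag leaf blades of wild-type and d1 plants. The 10 loci were selected by locus identifier and make up 10 of the 35667 rows of the deposited gene table and 10 of its 23672 tested rows. The pairing of identifiers with names follows the list used for selection, and no annotation used here carries these identifiers. The wild type (WT) was TC65, a japonica cultivar, and the mutant carried the allele d1-1 of RGA1, which encodes the alpha subunit of the heterotrimeric G protein. Blades were taken at their widest part from individually potted greenhouse plants, and the labels mention no inoculation or elicitor in either genotype. Plant age is stated as 2 months in one label and as 100 days in another. Days were 16 h at 30 °C on average, with a peak of 35 °C. Light was 500 µmol per square metre per second, and nights were at 25 °C. Each genotype had 2 biological replicate libraries, about 40000000 single-end reads of 150 bp each per the labels. The table holds 1 FPKM value per genotype (fragments scaled to transcript length and to the number of mapped fragments), so no spread between libraries can be given and the only test is that of the authors' deposited table.

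PR proteins are small, mostly secreted or vacuolar proteins that plants accumulate after attack by fungi and bacteria, and they are grouped into numbered classes by sequence. NH1 is the rice counterpart of Arabidopsis NPR1, a co-regulator that works through TGA transcription factors and carries the salicylic acid signal to PR genes. Rice leaves keep a high basal pool of salicylic acid, and many rice PR genes also respond to jasmonate and to wounding. Work on d1 rice has linked RGA1 to resistance against the blast fungus.

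In d1, 9 of the 10 loci fell by the q-value of the authors' deposited table (under 0.05), and none rose, all 10 log2 ratios being below 0. Over all tested rows, 12.1% were called lower and 7.24% higher. A fall of at least 2-fold was called at 9 of the 10 loci, against 6.28% of tested rows, and one of at least 4-fold at 6 of the 10, against 2.04%. The same 9 loci passed when the Benjamini-Hochberg adjustment was recomputed over all tested rows, of which it called 9.17% lower. The median log2 ratio of the 10 loci, d1 over WT, was -2.07, beside -0.02 over the tested rows. The selection was proposed with earlier results of these data known, so the counts describe these 10 loci and no test of the group was made. In leaf tissue, fewer cells of a type and less RNA per cell cannot be told apart.

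**Figure D1:**
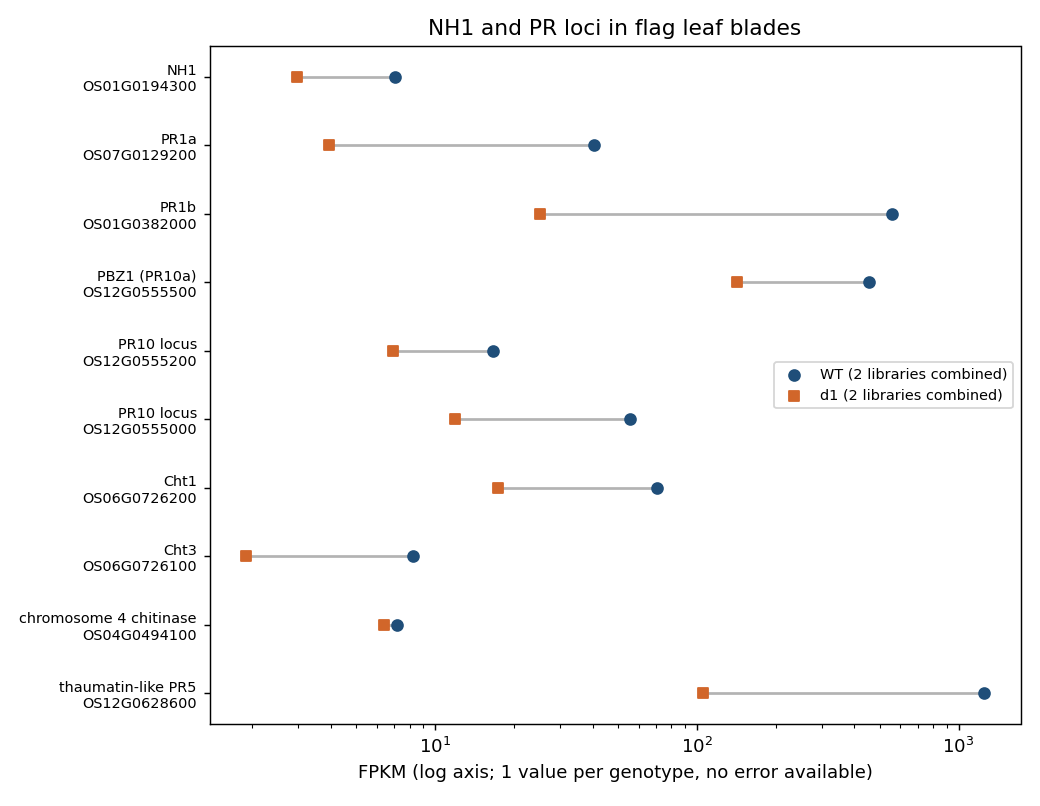
FPKM of each of the 10 loci in WT (circles) and d1 (squares), on a log axis, 1 value per genotype with no error available. Every square lies left of its circle, and the chitinase on chromosome 4 is the only locus where both nearly coincide.

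As regards the material, RGA1 itself (OS05G0333200, chromosome 5) stood at 20.7 FPKM in WT against 17.3 in d1, a difference that did not pass in the authors' deposited table (q = 0.296). A value over the whole locus does not show the d1-1 lesion. The 4 loci entered as rubisco small subunits, markers of green leaf tissue, ranged from 1430 to 21644 FPKM in WT and from 3192 to 35243 FPKM in d1, and 2 of the 4 were called higher in d1, beside 7.24% of all tested rows. With a Benjamini-Hochberg adjustment recomputed over all tested rows, 1 of the 2 calls was left. That adjustment called 1205 of the 23672 tested rows higher. The FPKM of all rows added up to 1144962 in WT against 1381426 in d1, which is a log2 ratio of 0.27. Setting both sums equal therefore lowers every log2 ratio by that amount, and both scales are given for some of the loci. The log2 ratios of the rubisco loci ran from 0.70 to 1.35 as deposited and from 0.43 to 1.08 with equal FPKM sums.

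NH1 (OS01G0194300, chromosome 1), the regulator among the 10, was a low-abundance transcript. It stood at 7.05 FPKM in WT against 2.97 in d1, a 2.37-fold lower level. The log2 ratio was -1.25 as deposited and -1.52 with equal FPKM sums, with p = 5e-05 and q = 0.000186 in the authors' deposited table. WT thus stood just below the median tested row (7.80 FPKM), and d1 further below its own median (7.41 FPKM). NH1 ranked last of the 10 loci in WT and ninth in d1.

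The PR1 loci, which encode small secreted proteins of the CAP family used as markers of the salicylic acid response, included the steepest fall of the group. PR1b (OS01G0382000, chromosome 1) stood at 559 FPKM in WT against 25.2 in d1, a 22.2-fold lower level (26.8-fold with equal FPKM sums). Of the 19471 tested rows with at least 1 FPKM in both genotypes, 9 had a lower ratio than PR1b. PR1a (OS07G0129200, chromosome 7) was less abundant and stood at 40.5 FPKM in WT against 3.93 in d1, a 10.3-fold lower level. The log2 ratios were -4.47 for PR1b and -3.36 for PR1a, both with p = 5e-05 and q = 0.000186 in the authors' deposited table. Both loci stood well above the median tested row in WT, and in d1 PR1a stood below it while PR1b stayed above.

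The thaumatin-like PR5 locus (OS12G0628600, chromosome 12) was the most abundant of the 10 in WT. Proteins of this class resemble the sweet protein thaumatin, and several of them damage fungal membranes. It stood at 1247 FPKM in WT against 106 in d1, an 11.8-fold lower level and a log2 ratio of -3.56 (q = 0.000186 in the authors' deposited table). It ranked 112 among tested rows in WT and 1375 in d1. Of the 112 tested rows at its WT level or above, 4 had a lower ratio. In WT it supplied 50.6% of the summed FPKM of the 10 loci, and in d1 32.5%.

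The PR10 loci encode small intracellular proteins of the Bet v 1 fold, some of which have ribonuclease activity, and the 3 followed here lie close together on chromosome 12. PBZ1 (PR10a, OS12G0555500), named for its induction by the plant activator probenazole, stood at 454 FPKM in WT against 143 in d1, a 3.17-fold lower level. The PR10 locus OS12G0555000 stood at 55.7 FPKM in WT against 11.9 in d1, a 4.68-fold lower level. The PR10 locus OS12G0555200 stood at 16.6 FPKM in WT against 6.93 in d1, a 2.39-fold lower level. All of them passed in the authors' deposited table, with q = 0.000186 for the first pair and q = 0.000526 for OS12G0555200. PBZ1 lost less of its level than PR1b or PR5, a description without a test of the difference, and so became the most abundant of the 10 loci in d1, with 43.9% of their summed FPKM against 18.4% in WT.

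Between these PR10 loci, the identifier order holds others that were not selected. OS12G0555100 was listed at 0 in both genotypes. OS12G0555300 stood at 4.48 FPKM in WT against 0.962 in d1 and was called lower, close to the threshold (authors' deposited table, q = 0.0489). It lost that call under the Benjamini-Hochberg adjustment recomputed from Cuffdiff's p-values in the authors' deposited table (adjusted value 0.113). OS12G0555400 stood at 10.7 FPKM in WT against 11.9 in d1 and did not pass (q = 0.711). Of the 5 tested loci of the stretch, 4 were lower by the deposited q-value and 3, the selected ones, also with the recomputed adjustment. Over all tested rows the shares were 12.1% and 9.17%. The stretch begins and ends at selected loci, so these counts in part repeat the selection. Neighbouring PR10 copies can share reads, and no source used here says how the authors' counting divided such reads, so the split among PR10 loci is uncertain.

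The chitinases, PR proteins that cut the chitin of fungal walls, gave the one exception. Cht1 (OS06G0726200, chromosome 6) stood at 70.4 FPKM in WT against 17.3 in d1, a 4.06-fold lower level. Cht3 (OS06G0726100), the next locus in identifier order, stood at 8.26 FPKM in WT against 1.90 in d1, a 4.34-fold lower level. In the authors' deposited table their q-values were 0.000186 and 0.00100, and the log2 ratios of the pair, -2.02 and -2.12, were close together although Cht1 was the more abundant in both genotypes. As related neighbours, Cht1 and Cht3 may also share reads. The chitinase on chromosome 4 (OS04G0494100) stood at 7.16 FPKM in WT against 6.41 in d1, a log2 ratio of -0.16 (-0.43 with equal FPKM sums), and did not pass (p = 0.607, q = 0.728 in the authors' deposited table). Its level in WT was near those of NH1 and Cht3, which both fell. Without libraries to compare, no interval can be set around its ratio, so an equal level in both genotypes is not shown.

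**Figure D2:**
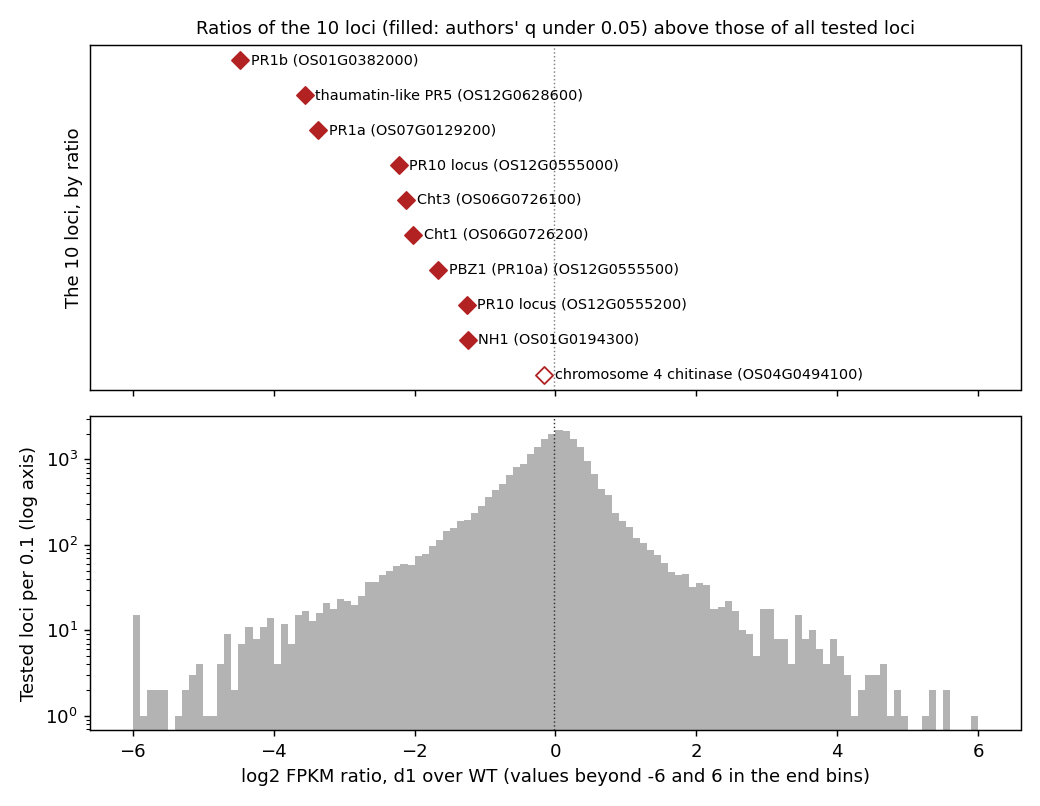
Upper panel, log2 FPKM ratio (d1 over WT) of each of the 10 loci, filled where the authors' q was under 0.05; lower panel, number of tested loci per 0.1 of log2 ratio, on a log axis, with the median of -0.02 dotted. The 9 called loci lie between -1.25 and -4.47, in the left tail, and the chitinase on chromosome 4 lies at -0.16, near the centre.

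Added up, the 10 loci came to 2466 FPKM in WT and 325 FPKM in d1, or 7.58-fold less. In WT the order of levels was PR5, PR1b, PBZ1, Cht1, OS12G0555000, PR1a, OS12G0555200, Cht3, the chitinase on chromosome 4 and NH1. In d1 it was PBZ1, PR5, PR1b, Cht1, OS12G0555000, OS12G0555200, the chitinase on chromosome 4, PR1a, NH1 and Cht3. The top 3 and the next pair were thus the same loci in both genotypes. Since the table has no spread, it cannot be said which neighbours in these orders differ. Counting only the most abundant locus of the PR10 stretch and of the chitinase pair, 6 of 7 were called lower in d1, beside 12.1% of all tested rows. That grouping was chosen after seeing the data.

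Other PR classes also held mostly lower calls. A further 32 loci had been entered as PR-class loci from general knowledge, with earlier results of these data known and without a check against an annotation. Of these, 22 were tested, and 14 were called lower in d1, 1 higher and 7 did not pass, beside 12.1% lower and 7.24% higher over all tested rows. The median log2 ratio of the 22 was -1.30, beside -0.02. Beta-glucanases (PR2), which cut fungal wall glucans, held 5 lower and 1 higher call among 6 tested loci. Other chitinases (PR3) held 4 lower calls among 6 tested loci, and the PR4 class of chitin-binding proteins 2 among 3. Among further PR5 loci, 1 of 4 tested was called lower. Of 7 further PR1 loci only 2 were tested, of which 1 was called lower, and 4 of the others were listed at 0 in both genotypes. The single tested locus entered as a further PR10 protein fell from 86.5 to 21.8 FPKM.

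Among the called loci of these classes, the steepest falls as deposited were at OS03G0418000, entered as a chitinase, from 4.20 to 0.629 FPKM, and at OS01G0940800, entered as a glucanase, from 47.5 to 7.97 FPKM. The first rests on a d1 value below 1 FPKM. With 1 FPKM added, its log2 ratio moved from -2.74 to -1.67. The steepest was then OS11G0592000, entered as a PR4 protein, at -2.48 (237 FPKM in WT against 41.7 in d1), followed by OS01G0940800 at -2.44. The rise was at OS05G0375400, also entered as a glucanase, from 48.0 to 362 FPKM, which is 7.54-fold higher (q = 0.000186 in the authors' deposited table). The PR2 class therefore held large differences in both directions, and its summed level was higher in d1 (483 FPKM) than in WT (365 FPKM) although 5 of its 6 loci were lower.

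**Figure D3:**
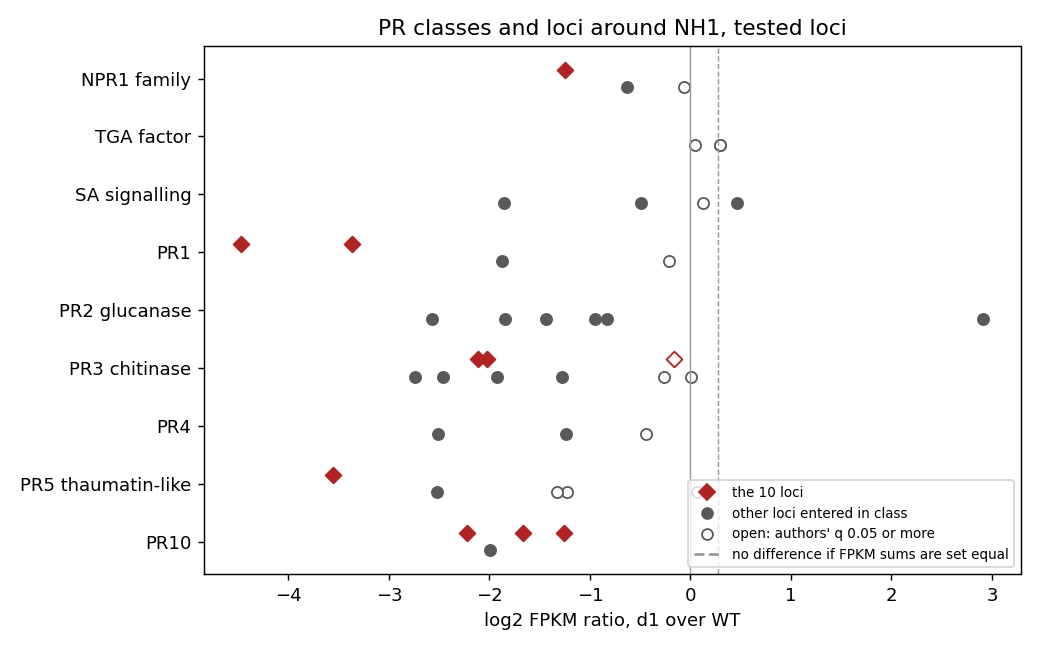
log2 FPKM ratio (d1 over WT) of tested loci by class; diamonds are the 10 loci, circles other loci entered in the class, and open symbols had an authors' q of 0.05 or more. The PR classes lie mostly below 0, with 1 glucanase at 2.91, while the loci around NH1 lie on both sides of 0.

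Loci around NH1 in salicylic acid signalling did not share a direction. Of 9 such loci, entered in the same way and all tested, 3 were called lower, 1 was called higher and 5 did not pass, beside 12.1% lower and 7.24% higher over all tested rows. Their median log2 ratio was 0.04, or -0.23 with equal FPKM sums. Of 2 further loci of the NPR1 family, 1 was called lower, at 16.3 FPKM in WT against 10.5 in d1 (authors' deposited table, q = 0.0329), and the other stood at 27.2 FPKM in WT against 26.0 in d1 without passing. None of the 3 TGA factor loci passed, with a smallest unadjusted p of 0.112 in the authors' deposited table. Their log2 ratios were 0.04, 0.30 and 0.30 as deposited, and -0.23, 0.02 and 0.03 with equal FPKM sums. A locus entered as isochorismate synthase, an enzyme of salicylic acid synthesis, stood at 40.8 FPKM in WT against 44.4 in d1 and did not pass. The steepest fall was at a locus entered as the transcription factor WRKY45, a regulator that acts beside NH1 in rice, from 191 to 52.8 FPKM (q = 0.000186). Loci entered as EDS1 and PAD4, which form a signalling pair upstream of salicylic acid in Arabidopsis, went opposite ways. The EDS1 locus OS09G0392100 rose from 15.5 to 21.3 FPKM (q = 0.0420), a log2 ratio of 0.46, or 0.19 with equal FPKM sums. The PAD4 locus fell from 29.9 to 21.3 FPKM (q = 0.0295), a log2 ratio of -0.49, or -0.76 with equal FPKM sums. Of these 4 calls, only that at the WRKY45 locus passed when the Benjamini-Hochberg adjustment was recomputed over the tested rows. That adjustment called 9.17% of all tested rows lower.

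The loci next to the 10, in identifier order, were examined because genes of 1 class often lie in clusters. Within 5 positions on either side lay 73 other loci, of which 45 were tested. By Cuffdiff's q-value in the authors' deposited table, 9 were called lower (20.0%, against 12.1% of all tested rows). None was called higher, against 7.24% of all tested rows. At an unadjusted p under 0.05, 3 neighbours were higher, and the 9 called lower also fell under that limit. The share of all tested rows under it was not computed, so nothing is read from the 3. With the recomputed adjustment 7 were lower and 0 higher, beside 9.17% of all tested rows lower and 1205 of the 23672 higher. Without the loci already entered in a class above, 6 of 40 (15.0%) were called lower by the deposited q-value, beside 12.1% of all tested rows. With the recomputed adjustment it was 4 of 40, close to the 9.17% of all tested rows. The median log2 ratio of the 45 neighbours was -0.19. Beside PR1a, the adjacent locus entered as a PR1 protein fell from 3.86 to 1.05 FPKM. In the windows of Cht1 and Cht3, 1 of 4 tested neighbours was called lower. The chitinase on chromosome 4 lay 2 positions from another locus entered as a chitinase, which fell from 71.4 to 29.5 FPKM.

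**Figure D4:**
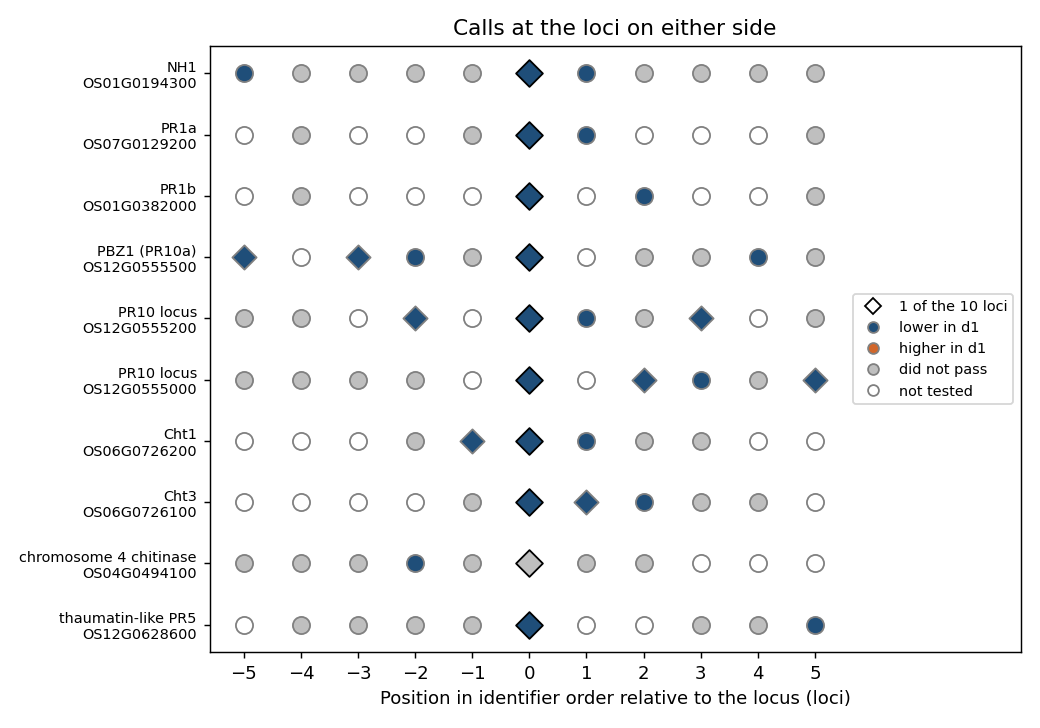
Calls by the authors' q-value at the 5 loci on either side of each of the 10 loci, in identifier order; diamonds are members of the 10, dark symbols were called lower in d1, grey ones did not pass and white ones were not tested. Most tested neighbours did not pass, and none was called higher.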

How the data were processed

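RNA of flag leaf blades was sequenced from 2 libraries of each of 2 genotypes. Per the submitters' processing notes, FastQC, Trimmomatic, TopHat2, Cufflinks and Cuffdiff were used with the rice build IRGSP-1.0, while their versions and settings and the gene annotation were not given in the sources used here. Values in FPKM were deposited by the authors as 1 value per genotype over its libraries, so mapped depth and the scaling between libraries are unknown and no interval can be given. The p-value, q-value and signed test score were also deposited by the authors. The smallest p, 5e-05, is shared by 1342 tested rows and by 7 of the 10 loci, so it does not rank them. Whether the replicates came from separate plants is not stated, and the p-values rest on them.

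A locus was called where the authors' q was under 0.05. The log2 ratios were computed from FPKM without a pseudocount (Python 3.11.15, pandas 2.3.3), since part of the deposited log2 column holds no number. As an alternative, a Benjamini-Hochberg adjustment was computed anew over the p-values of the 23672 tested rows, and that step was tested on simulated data. At Cuffdiff's smallest p of 5e-05 it gave 0.000882, where the authors' q was 0.000186. The deposited q was thus the more lenient there, and the sources used here do not say how it was adjusted. Stricter calls, other pseudocounts, a low-value filter and other scales were also tried. The 10 loci and the lists were chosen with earlier results of these data known. All 10 loci are described. Other entered loci are given by class, with identifiers for those singled out. None of the 10 identifiers matched the RefSeq gene table (ASM3414082v1), so no coordinates or sequences are given.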

Additional observations from a re-analysis of the deposited data

Results flagged for a closer look

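Among the entered loci that the authors had not tested, 1 had a higher value in d1 than in WT. It was OS05G0399300, entered as a chitinase, at 0.347 FPKM in d1 and 0.210 FPKM in WT, both low.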

How the results depend on the processing

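No paired analysis was possible because replicates had been merged into 1 FPKM per genotype before deposit, which also meant that leaving out a library was not an option. For single loci, the 30 alternatives of the call (another adjustment, threshold or minimum fold) changed none. Each was stricter than the deposited call, so it could only remove a call, and the chitinase on chromosome 4 had none to lose. The 40 alternatives of pseudocount or scale, which leave the deposited q as it is, changed no direction, and none could have done so. A pseudocount cannot change the sign of a ratio, and equal FPKM sums only lower ratios that were all below 0. Centring on the median of all tested rows (-0.02) was a smaller shift than the ratio nearest 0 (-0.16). Of the 10 loci, 9 were called lower under each setting of the call, or 6 of 7 with 1 locus per group of neighbours, a choice made after seeing the data. The 10 loci's median log2 ratio ranged from -2.34 with equal FPKM sums to -1.82 with 1 FPKM added. The lower calls among loci around NH1 fell from 3 to 1, and the higher calls from 1 to 0, under the recomputed adjustment, a q under 0.01 and a minimum of 2-fold alike. Their median log2 ratio changed sign with equal FPKM sums, from 0.04 to -0.23, which follows from the shift of that scale. Over all tested rows, a q under 0.01 left 1860 lower and 972 higher calls, and a minimum of 2-fold 1486 and 639, in place of 2856 and 1713. Without values per library, depth limits could not be set beside low loci such as Cht3 and NH1.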
